A study of Mus musculus with 6 samples.

Results

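The genes described here are 10 markers of endothelial cells, the cells that line blood and lymphatic vessels, in excised intestinal adenomas: *Pecam1*, *Cdh5*, *Kdr*, *Flt1*, *Tek*, *Tie1*, *Vwf*, *Plvap*, *Lyve1* and *Prox1*. They were chosen by symbol, and all 10 were found once among the 34866 genes of the deposited table through their Ensembl identifiers in GENCODE M21. The RNA came from adenomas of mice of the C57BL/6J strain aged between 100 and 120 days, 3 libraries from Apc1322T/+ mice and 3 from ApcMin/+ mice. Both groups carry a heterozygous germline mutation of *Apc*, the tumour suppressor that restrains β-catenin. The protein made from the Apc1322T allele still carries multiple binding sites for β-catenin, which the shorter ApcMin protein lacks. No library of normal intestine was analysed, so that the levels describe adenomas alone. The adenomas were cut out whole, so that each library mixes tumour epithelium, stroma and vessels, and by the study's methods several RNA extractions of a mouse were typically pooled for a sample. The labels do not say which mouse each library came from. The libraries were taken as independent, and the p-values measure only the spread between them, which may in part be technical. In such bulk RNA, fewer cells of a type and less RNA per cell cannot be told apart.

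Growing tumours are supplied by new vessels that sprout from existing ones. VEGF ligands, secreted by epithelial and stromal cells, act on receptors of endothelial cells to drive sprouting, and the angiopoietins act on Tie receptors to regulate how stable the new vessels are. Lymphatic vessels form a separate network whose endothelium depends on the transcription factor Prox1. Within the list, *Pecam1* and *Cdh5* encode adhesion molecules of endothelial junctions, *Kdr* and *Flt1* receptors for VEGF, *Tek* and *Tie1* the Tie receptors, and *Vwf* and *Plvap* products of blood vessel endothelium. *Lyve1* and *Prox1* mark lymphatic endothelium. Several are not private to endothelium: *Pecam1* is also present on platelets and leukocytes, *Vwf* in platelets, *Lyve1* on some macrophages, and *Prox1* in enteroendocrine cells and in the epithelium of intestinal adenomas.

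The estimated counts per library summed to between 23132461 and 33518324, and 3 counts, the smallest signal taken as detectable, corresponded to between 0.0895 and 0.130 counts per 1000000 (CPM), a limit that covers counting error only. All 10 genes had at least 99 counts in every library, and all passed the filter on low counts that left 16536 genes for testing. Counts were scaled by the TMM method, and levels are given as log2 CPM with a prior count of 2. ApcMin was set against Apc1322T by a quasi-likelihood F-test in edgeR, with p-values adjusted by Benjamini-Hochberg over the 16536 genes and the study's threshold of 0.01. A positive log2 fold change denotes a higher level in ApcMin adenomas, and fold changes are given ± their standard error (SE). By this test 0 of the 16536 genes (0.0%) and 0 of the 10 endothelial genes passed, while 1 gene (0.00605%), no endothelial gene, passed at an adjusted p of 0.05. An unadjusted p under 0.05 was found for 2495 genes (15.1%), and DESeq2's Wald test at an adjusted p of 0.01 called 194 of 17346 genes (1.12%), of which 1 was an endothelial gene.

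The levels of all 10 endothelial genes were, on average, higher in ApcMin than in Apc1322T adenomas, with log2 fold changes from 0.15 for *Kdr* to 1.38 for *Cdh5*. Of all genes tested, 52.4% had a log2 fold change above 0. The median log2 fold change of the 10 genes was 0.44, beside 0.017 over all genes tested. At an unadjusted p under 0.05 there were 3 of the 10, *Cdh5*, *Flt1* and *Lyve1*, all higher in ApcMin adenomas, where 7.49% of all genes were called in this direction. The same 3 genes were those whose 3 ApcMin libraries all lay above the 3 Apc1322T libraries, which held for 11.0% of all genes. Their adjusted p by edgeR ranged from 0.279 to 0.317, and DESeq2 called *Cdh5* alone, where 0.721% of all genes were called in this direction. None of the 10 had its ApcMin libraries all below the Apc1322T libraries, beside 9.96% of all genes, and 21.0% of all genes were without overlap in either direction. Without ApcMin replicate 1, 7 of the 10 genes were higher in ApcMin adenomas. Without Apc1322T replicate 2, and likewise without replicate 3, *Cdh5* was the single endothelial gene with an unadjusted p under 0.05, and without Apc1322T replicate 1 there were 4, with *Vwf* the addition. The share of all genes moved in the same way, to 6.92%, 8.63% and 24.4% in these 3 fits. Markers of epithelium ran the opposite way: all 7 epithelial genes listed for comparison had lower levels in ApcMin adenomas (5 of 7 at an unadjusted p under 0.05, beside 7.6% of all genes in this direction), and their summed level was 12700 to 15800 CPM in Apc1322T and 10100 to 12100 CPM in ApcMin libraries. Between 0, without Apc1322T replicate 2 or ApcMin replicate 3, and 6 of the 7, without Apc1322T replicate 1, had an unadjusted p under 0.05 in fits with a library left out, where the share of all genes was 6.92%, 9.87% and 24.4%. The part of this shift in the endothelial values was not tested.

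**Figure D1:**
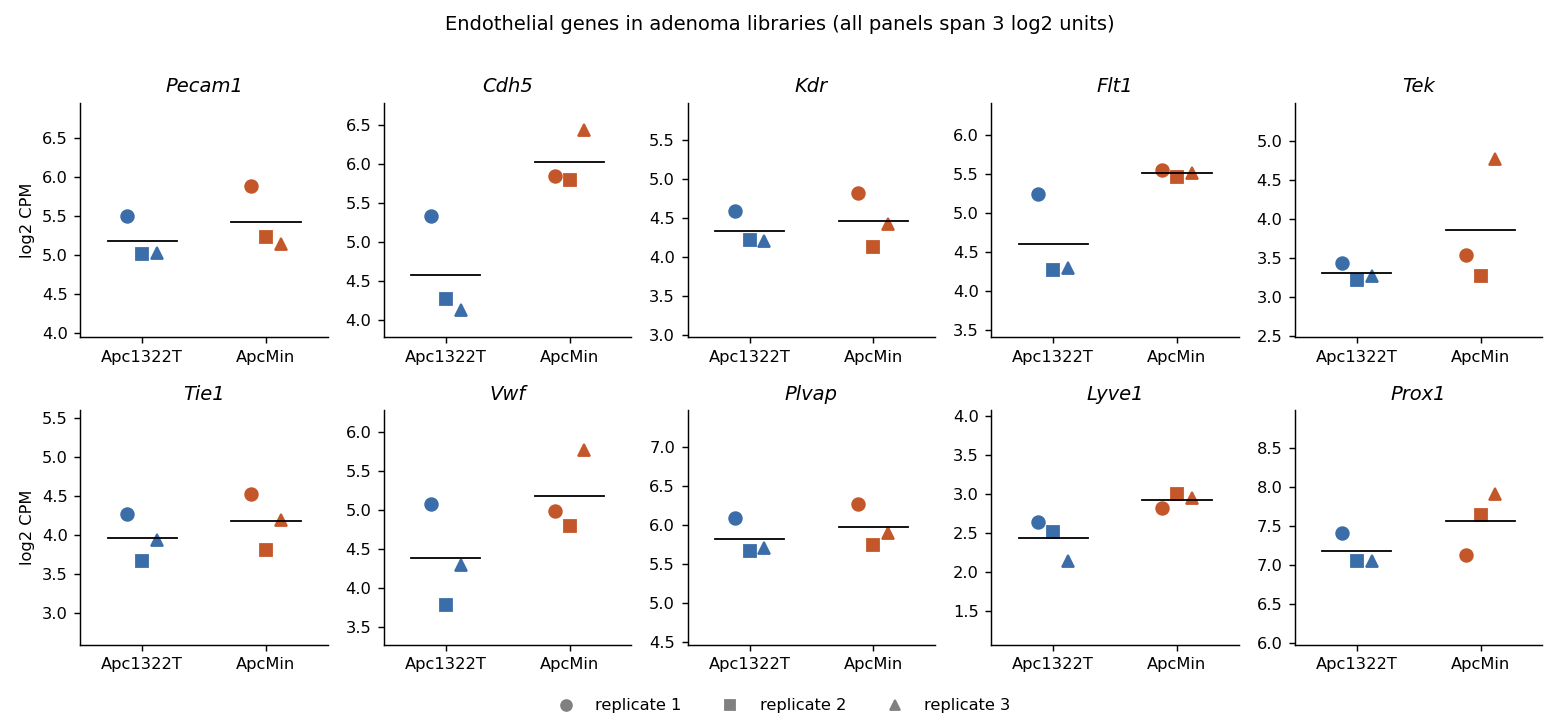
Level of each endothelial gene in log2 CPM (vertical axis, every panel spanning 3 log2 units) in the Apc1322T (blue) and ApcMin (orange) libraries, with 1 symbol per library, its shape giving the replicate number, and a line at the group mean. *Cdh5*, *Flt1* and *Lyve1* show ApcMin libraries that all lie above the Apc1322T libraries, and *Tek* a single high library, ApcMin replicate 3, at 4.76.

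The junction genes were the first pair compared. *Pecam1*, on chromosome 11 of GRCm38 (106654217 to 106750628), had log2 CPM of 5.50, 5.02 and 5.03 in Apc1322T replicates 1, 2 and 3 and of 5.89, 5.23 and 5.15 in ApcMin replicates 1, 2 and 3. The groups overlapped, with replicate 1 the highest library of each genotype. The log2 fold change of 0.26 ± 0.24 (SE) had an adjusted p of 0.612 by edgeR. It was about as large as its error, and was -0.02 when ApcMin replicate 1 was left out. *Cdh5*, which encodes VE-cadherin and lies on chromosome 8 (104101625 to 104144511), had log2 CPM of 5.33, 4.27 and 4.13 in the Apc1322T and of 5.85, 5.80 and 6.44 in the ApcMin libraries. Every ApcMin library was higher than every Apc1322T library, and Apc1322T replicate 1 stood closest to them. In counts, *Cdh5* ran from 397 to 1091 in the former group and from 1418 to 2740 in the latter. The difference of 1.38 ± 0.37 (log2, SE), or 2.61-fold, had an unadjusted p of 0.00879 and an adjusted p of 0.279 by edgeR, and an adjusted p of 0.0067 by DESeq2. With each library left out in turn it stayed between 1.15 and 1.87, with adjusted p from 0.0462, without Apc1322T replicate 1, to 0.692, without Apc1322T replicate 2.

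Both VEGF receptor genes of the list lie on chromosome 5, *Kdr* from 75932827 to 75978458 and *Flt1* from 147561604 to 147726011. *Kdr* encodes VEGF receptor 2, the main signalling receptor for VEGF-A. Its log2 CPM was 4.58, 4.21 and 4.20 in the Apc1322T and 4.82, 4.12 and 4.42 in the ApcMin libraries. The groups overlapped over most of their range, and ApcMin replicate 2 was the lowest library of all. The log2 fold change was 0.15 ± 0.20 (SE), with an adjusted p of 0.737 by edgeR, and -0.06 without ApcMin replicate 1. *Flt1* encodes VEGF receptor 1, which binds VEGF-A, VEGF-B and placental growth factor. Its log2 CPM was 5.25, 4.27 and 4.30 in the Apc1322T and 5.56, 5.47 and 5.51 in the ApcMin libraries. The ApcMin libraries were close together, from 5.47 to 5.56, and all above Apc1322T replicate 1, the highest of its group. ApcMin over Apc1322T, the log2 fold change was 0.83 ± 0.27 (SE), with an unadjusted p of 0.0201 and an adjusted p of 0.288 by edgeR. Without Apc1322T replicate 1 it was 1.24 with an adjusted p of 0.0333, and without Apc1322T replicate 2 it was 0.66 with an adjusted p of 0.692. By DESeq2 the adjusted p was 0.084.

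Promoter sequences for the list were read from RefSeq annotation of GRCm38.p6, where entries matched 5 of the 10 genes, namely *Flt1*, *Kdr*, *Prox1*, *Tek* and *Tie1*. *Pecam1*, *Cdh5*, *Vwf*, *Plvap* and *Lyve1* were not matched. The windows hold the 250 bases before each start site. Those of the VEGF receptors are shown, as this pair of related genes had unlike fold changes, with GGAA on either strand (GGAA or TTCC, the core letters bound by ETS factors, a family known for control of endothelial genes) in capitals. Bases that GENCODE M21 places in an exon were left off the window of *Kdr*.
*Flt1*, chr5:147726012-147726261, minus strand: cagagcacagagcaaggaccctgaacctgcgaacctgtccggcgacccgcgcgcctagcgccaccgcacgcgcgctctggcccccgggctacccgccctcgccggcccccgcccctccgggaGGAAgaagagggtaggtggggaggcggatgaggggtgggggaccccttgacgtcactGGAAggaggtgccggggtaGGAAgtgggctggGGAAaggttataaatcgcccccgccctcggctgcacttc
*Kdr*, chr5:75978459-75978705, minus strand: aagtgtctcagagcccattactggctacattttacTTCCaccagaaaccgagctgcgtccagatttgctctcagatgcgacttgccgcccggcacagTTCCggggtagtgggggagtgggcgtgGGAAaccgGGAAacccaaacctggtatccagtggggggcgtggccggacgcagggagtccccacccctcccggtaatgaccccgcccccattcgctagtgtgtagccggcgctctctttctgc
Each window held 4 such cores, and 33.4% of the 32851 promoters in the annotation held at least 4. Longer letters were searched on both strands as well. For ETS factors these were CCGGAAG, held by 6.91% of all promoters, and a second form that also contains the GGAA core, ACAGGAA, held by 7.2%. For GATA factors the letters were AGATAAG, held by 2.74%, and for SOX factors the search used ACAATGG, held by 3.02%. No such letters were in the windows of *Flt1* and *Kdr*. Among the 6 entries of the 5 matched genes, *Tie1* had the second ETS form. All 250 bases were searched, of which 38 lie before the start of *Tie1* in GENCODE M21. Whether this match lies within those 38 bases was not examined. A match of letters describes the sequence and is not evidence of binding.

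The Tie receptor genes lie on chromosome 4, *Tek* from 94739289 to 94874976 and *Tie1* from 118471191 to 118490061. *Tek* encodes Tie2, the receptor of the angiopoietins. Its log2 CPM was 3.43, 3.21 and 3.27 in the Apc1322T and 3.53, 3.26 and 4.76 in the ApcMin libraries. A single library, ApcMin replicate 3, stood apart, and the other 5 lay close together. This gave a log2 fold change of 0.71 ± 0.40 (SE), with an adjusted p of 0.421 by edgeR, and 0.10 without ApcMin replicate 3. *Tie1* encodes a co-receptor of Tie2. Its log2 CPM was 4.27, 3.66 and 3.94 in the Apc1322T and 4.53, 3.80 and 4.19 in the ApcMin libraries, with replicate 1 the highest of each group. Between genotypes the log2 fold change was 0.23 ± 0.23 (SE), with an adjusted p of 0.638 by edgeR, and 0.03 without ApcMin replicate 1.

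*Vwf*, on chromosome 6 (125546774 to 125686679), encodes von Willebrand factor, which endothelial granules store for use in clotting. Its log2 CPM was 5.08, 3.78 and 4.29 in the Apc1322T and 4.98, 4.80 and 5.77 in the ApcMin libraries. The groups overlapped because of Apc1322T replicate 1, and ApcMin replicate 3 was the highest library. The log2 fold change was 0.77 ± 0.40 (SE), with an adjusted p of 0.400 by edgeR, with values from 0.41, without ApcMin replicate 3, to 1.19, without Apc1322T replicate 1. *Plvap*, on chromosome 8 (71497765 to 71511752), encodes the protein of the diaphragms of fenestrated endothelium, the kind found in intestinal capillaries. Its log2 CPM was 6.09, 5.66 and 5.70 in the Apc1322T and 6.27, 5.74 and 5.90 in the ApcMin libraries. It was the gene of the list that had the narrowest range over the 6 libraries, from 5.66 to 6.27. ApcMin over Apc1322T, the log2 fold change was 0.16 ± 0.18 (SE), with an adjusted p of 0.681 by edgeR, and -0.01 without ApcMin replicate 1.

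Of the lymphatic genes, *Lyve1* (chromosome 7, 110850607 to 110863239) encodes a hyaluronan receptor of lymphatic endothelium. Its log2 CPM was 2.63, 2.51 and 2.14 in the Apc1322T and 2.81, 2.99 and 2.94 in the ApcMin libraries. The groups did not overlap, by the small margin between the first replicates, 2.63 and 2.81. This gave a log2 fold change of 0.48 ± 0.19 (SE), with an unadjusted p of 0.041 and an adjusted p of 0.317 by edgeR. It stayed between 0.34 and 0.59 with each library left out. *Lyve1* can also come from macrophages, whose marker list is given further on. *Prox1* (chromosome 1, 190118035 to 190170714) had log2 CPM of 7.42, 7.06 and 7.06 in the Apc1322T and of 7.13, 7.65 and 7.91 in the ApcMin libraries. The groups overlapped, and ApcMin replicate 1, which was the highest library for 5 of the 10 genes, was the lowest of its group for *Prox1*. Between genotypes the log2 fold change was 0.41 ± 0.21 (SE), with an adjusted p of 0.397 by edgeR. It was 0.22 without ApcMin replicate 3 and 0.59 without ApcMin replicate 1. The mean log2 CPM of *Lyve1* and *Prox1* minus that of the other 8 genes was 0.09, 0.52 and 0.24 in the Apc1322T and -0.21, 0.54 and 0.16 in the ApcMin libraries, with overlap throughout.

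**Figure D2:**
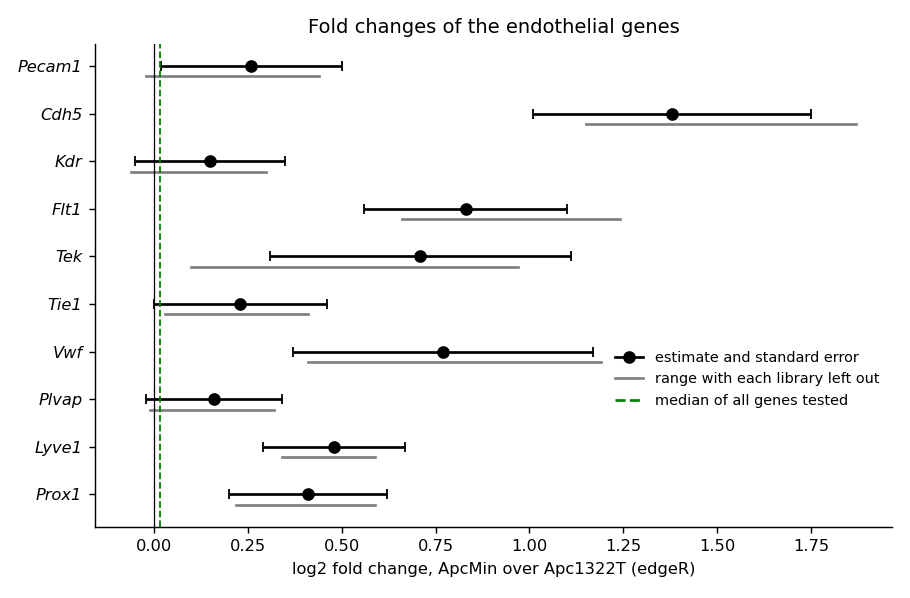
Log2 fold change of each endothelial gene, ApcMin over Apc1322T (horizontal axis), with its standard error (black bars), the range of the estimate with each library left out in turn (grey lines), and the median of all genes tested, 0.017 (dashed green line). All 10 estimates lie above 0, from 0.15 for *Kdr* to 1.38 for *Cdh5*, and the grey lines of *Pecam1*, *Kdr* and *Plvap* reach below 0.

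To compare levels between genes, CPM values were divided by the length of all exons of a gene in kilobases. On this scale *Plvap* was the highest, at 30.3 ± 5.32 CPM per kilobase (SD, n = 6 libraries), and *Prox1* followed at 20.2 ± 5.20. Their ranges overlapped, from 25.4 to 38.8 and from 15.8 to 28.7, although *Plvap* was the higher of the pair in 6 of 6 libraries. *Cdh5* came next at 11.0 ± 6.25, with 6.08 ± 2.99 (SD, n = 3) in Apc1322T and 15.9 ± 4.12 (SD, n = 3) in ApcMin adenomas, before *Pecam1* at 6.49 ± 1.67. In 2 Apc1322T libraries, replicates 2 and 3, the order of *Cdh5* and *Pecam1* was the other way round. *Tie1* had 3.46 ± 0.792. *Tek* (2.74 ± 1.48), *Flt1* (2.64 ± 0.957), *Kdr* (2.35 ± 0.463), *Lyve1* and *Vwf* (1.87 ± 0.88) followed, each within an SD of the next. The order depends on the length used: with the longest transcript, *Pecam1* had 11.7, *Flt1* 5.17 and *Vwf* 3.41 CPM per kilobase, and *Pecam1* stood above *Cdh5*. The level of *Prox1* per kilobase was far above that of *Lyve1*, the other lymphatic gene, at 2.20 ± 0.456. These libraries do not separate *Prox1* of lymphatic endothelium from *Prox1* of other cells.

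The endothelial genes did not follow the same libraries. Apc1322T replicate 1 was the highest of its group for all 10 genes. Among the ApcMin libraries, replicate 1 was the highest of all 6 for 5 genes (*Pecam1*, *Kdr*, *Flt1*, *Tie1* and *Plvap*), replicate 3 for 4 genes (*Cdh5*, *Tek*, *Vwf* and *Prox1*) and replicate 2 for *Lyve1*. The genes of a role were therefore set against each other within each library, a comparison chosen after the values were seen and given without a test. The log2 CPM of *Cdh5* minus that of *Pecam1* was -0.18, -0.75 and -0.91 in the Apc1322T and -0.04, 0.58 and 1.29 in the ApcMin libraries. The groups did not overlap, and ApcMin replicate 1 stood next to Apc1322T replicate 1. The log2 CPM of *Flt1* minus that of *Kdr* was 0.67, 0.07 and 0.10 in the Apc1322T and 0.74, 1.35 and 1.09 in the ApcMin libraries, again without overlap and again with the first replicates adjacent. For *Tek* minus *Tie1* and *Vwf* minus *Plvap* the means differed by 0.33 and 0.65 (ApcMin minus Apc1322T). The groups overlapped, with ApcMin replicate 3 the highest library for both pairs. For *Prox1* minus *Lyve1* the means differed by -0.11, also with overlap. The pairs without overlap each hold a gene, *Cdh5* or *Flt1*, that did not overlap on its own.

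Each endothelial gene was also set against 24 other genes of endothelial junctions and cell surfaces, again as a description added after the values were seen. The median log2 CPM of these 24 genes was 3.63, 2.96 and 3.04 in the Apc1322T and 3.72, 3.11 and 3.43 in the ApcMin libraries. Its group means differed by 0.21, less than the median log2 fold change of the same 24 genes, 0.36, so that the relative levels depend on the reference. Relative to this median, *Pecam1*, *Kdr*, *Tie1* and *Plvap* had nearly the same mean in both genotypes, with differences (ApcMin minus Apc1322T) of 0.03, -0.08, 0.01 and -0.05. *Tie1* was at 0.74 ± 0.14 (SD, n = 3) in Apc1322T and 0.75 ± 0.06 (SD, n = 3) in ApcMin adenomas. *Cdh5* was at 1.69, 1.30 and 1.08 in the Apc1322T and at 2.13, 2.69 and 3.01 in the ApcMin libraries, a difference of 1.25 between the means without overlap. *Flt1* was at 1.61, 1.31 and 1.26 in the Apc1322T and at 1.84, 2.36 and 2.08 in the ApcMin libraries, a difference of 0.70, also without overlap. For *Lyve1*, which did not overlap on its own, the relative levels overlapped, with a difference of 0.28. *Tek*, *Vwf* and *Prox1* differed by 0.34, 0.59 and 0.17 with overlap.

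**Figure D3:**
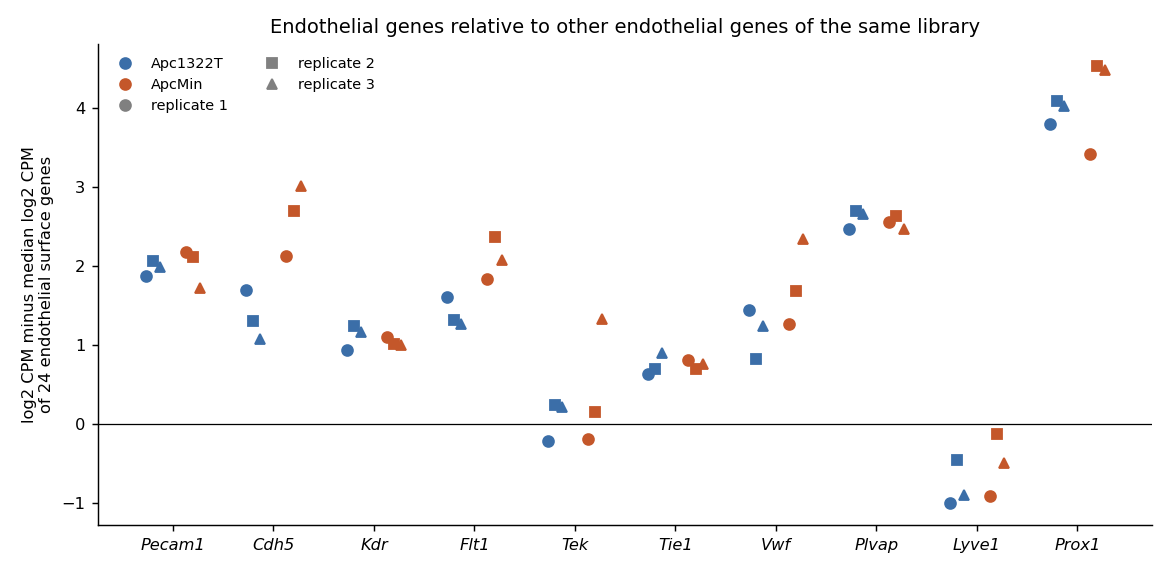
Level of each endothelial gene relative to the median of 24 other endothelial surface genes of the same library (log2 CPM minus that median, vertical axis), with 1 symbol per library, Apc1322T in blue and ApcMin in orange. *Cdh5* and *Flt1* separate by genotype, with differences of 1.25 and 0.70, while *Kdr*, *Tie1* and *Plvap* differ by at most 0.08 between the means.

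Genes of the pathways in which these receptors act were read from the same fit. For this list and those that follow, 52.4% of all genes tested had a log2 fold change above 0. An unadjusted p under 0.05 by edgeR was found for 7.49% of all genes with a higher and 7.6% with a lower level in ApcMin adenomas. Of 8 VEGF ligands, co-receptors and the lymphatic receptor gene *Flt4*, 7 were higher in ApcMin adenomas, with a median log2 fold change of 0.35, and 1 had an unadjusted p under 0.05. This was *Vegfa*, the main ligand of *Kdr* and *Flt1*, with log2 CPM of 6.35, 6.41 and 6.35 in the Apc1322T and 6.57, 6.75 and 6.88 in the ApcMin libraries. Its groups did not overlap, and the log2 fold change was 0.37 ± 0.10 (SE), with an unadjusted p of 0.00797 and an adjusted p of 0.279 by edgeR, from 0.29 to 0.45 with each library left out. *Pgf*, which encodes placental growth factor, a ligand of *Flt1* and not of *Kdr*, had a log2 fold change of 1.00 ± 0.55 (SE) with overlapping libraries and between 13 and 153 counts. *Vegfb*, also a ligand of *Flt1*, had -0.12 ± 0.20 (SE). The ligands of *Flt4*, *Vegfc* and *Vegfd*, had 0.36 and 0.35, and *Flt4* itself 0.35 (standard errors 0.27, 0.41 and 0.28). The co-receptor genes *Nrp1* and *Nrp2* had 0.53 and 0.08 (standard errors 0.25 and 0.27). Several of these values rested on 1 library: without ApcMin replicate 1 *Nrp1* had 0.28, *Nrp2* -0.30, *Vegfd* -0.08 and *Flt4* 0.10, and the median of the list was 0.19. Without Apc1322T replicate 1 *Vegfb* had 0.06 and *Pgf* 1.67, without Apc1322T replicate 2 *Pgf* had 0.62, and without ApcMin replicate 3 *Vegfc* had 0.15.

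On the angiopoietin side all 4 genes listed had log2 fold changes above 0 and none an unadjusted p under 0.05. *Angpt2*, made by sprouting endothelium and able to oppose Tie2, had log2 CPM of 2.99, 1.75 and 1.92 in the Apc1322T and 3.56, 2.71 and 3.12 in the ApcMin libraries. The groups overlapped because of Apc1322T replicate 1, and the log2 fold change was 0.85 ± 0.39 (SE), with an adjusted p of 0.359 by edgeR. It was 1.36 without Apc1322T replicate 1 and 0.60 without ApcMin replicate 1. *Angpt1*, the main agonist of Tie2, had few counts, from 16 to 53, and a log2 fold change of 0.14 ± 0.45 (SE). *Angpt4* had between 1 and 55 counts and 1.84 ± 0.80 (SE), and *Ptprb*, which encodes a phosphatase of Tie2 and VE-cadherin, 0.26 ± 0.25 (SE). With a library left out *Angpt1* ran from -0.21, without ApcMin replicate 1, to 0.47, without ApcMin replicate 3, and *Ptprb* from 0.05, without Apc1322T replicate 2, to 0.48, without Apc1322T replicate 1.

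Among the 24 genes of endothelial junctions and surfaces, 20 were higher in ApcMin adenomas, with a median log2 fold change of 0.36, but at an unadjusted p under 0.05 there were 1 higher and 2 lower. The shares of all genes at this threshold were 7.49% higher and 7.6% lower. The median of the 24 genes was 0.13 without ApcMin replicate 1 and 0.52 without Apc1322T replicate 1. The higher gene was *Egfl7*, a secreted product of endothelium, at 0.41 ± 0.15 (SE). The lower genes were *Cd36*, which encodes a fatty acid transporter also made by enterocytes, at -1.48 ± 0.49 (SE), and *Rgcc*, a cell cycle regulator, at -0.94 ± 0.31 (SE). *Ace* and *Aqp1* were lower without passing this threshold, at -1.43 ± 0.75 and -0.13 ± 0.12 (SE). *Ace* had between 2393 and 18134 counts, the widest range of this list. These libraries do not show from which cells the RNA of the listed genes came. *Jam2*, a junction gene, had 0.39 ± 0.17 (SE) without overlap and an unadjusted p of 0.0563. Without ApcMin replicate 1 there were 0 of the 24 with an unadjusted p under 0.05, and without Apc1322T replicate 1 there were 10, beside 11.8% and 24.4% of all genes. Of 19 endothelial transcription factors 15 were higher, with a median of 0.26 (0.13 without ApcMin replicate 1, 0.40 without Apc1322T replicate 1), and 2 had an unadjusted p under 0.05, both higher. *Lyl1* had a log2 fold change of 0.79 ± 0.31 (SE). *Sox17*, a factor of arterial endothelium that is also known from endoderm, had counts of 441, 192 and 156 in the Apc1322T and of 1752, 2554 and 5491 in the ApcMin libraries. Its groups were far apart, with a log2 fold change of 3.32 ± 0.56 (SE), an unadjusted p of 0.00091 and an adjusted p of 0.257 by edgeR. *Sox7* and *Sox18*, related factors of endothelium, had 0.27 and 0.09 (standard errors 0.27 and 0.31), and 0.06 and -0.25 without ApcMin replicate 1. Their counts in the ApcMin libraries were far below those of *Sox17*, from 73 to 155 for *Sox7* and from 229 to 537 for *Sox18*. Which cells the *Sox17* RNA came from was not tested.

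Of 12 genes of tip cells and sprouting, 9 were higher in ApcMin adenomas, with a median of 0.24. *Notch1* alone, at 0.26 ± 0.11 (SE), had an unadjusted p under 0.05, beside 7.49% of all genes in this direction. Without ApcMin replicate 1 the median of the list was -0.02. All 6 genes of endothelial activation were at or above 0, with a median of 0.54 that ran from -0.04, without ApcMin replicate 1, to 0.92, without ApcMin replicate 2. *Vcam1*, which encodes an adhesion molecule for leukocytes, had log2 CPM of 2.32, 1.72 and 2.04 in the Apc1322T and 3.83, 2.48 and 3.40 in the ApcMin libraries, without overlap and with a log2 fold change of 1.30 ± 0.36 (SE) and an adjusted p of 0.279 by edgeR. The lymphatic list held 11 symbols with 12 identifiers, since 2 identifiers carry the symbol *Ccl21a*, and 11 passed the filter (*Stab2* did not). Of these, 10 were higher in ApcMin adenomas, with a median of 0.63. An unadjusted p under 0.05 was found for 3, all higher and 2 of them identifiers of *Ccl21a*, beside 7.49% of all genes in this direction. Without Apc1322T replicate 2 the median was 0.42 with 2 such identifiers, and without ApcMin replicate 2 it was 0.74 with 4. The shares of all genes in these fits were 6.92% and 12.6%. *Mmrn1*, a product of lymphatic endothelium, had counts of 89, 55 and 68 in the Apc1322T and of 182, 157 and 226 in the ApcMin libraries, without overlap (log2 fold change 1.05 ± 0.22, SE, adjusted p = 0.257 by edgeR). The identifiers of *Ccl21a*, a chemokine of lymphatic endothelium and lymphoid tissue, had 2.10 ± 0.38 (SE) and 1.21 ± 0.41 (SE), and copies of this gene share reads, so that the division between them is uncertain. *Foxc2*, a factor of lymphatic valves, had -0.56 ± 0.49 (SE), and 0.01 without Apc1322T replicate 1. Some genes, *Flt4*, *Vegfc* and *Angpt2* among them, stand in more than 1 of these lists.

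**Figure D4:**
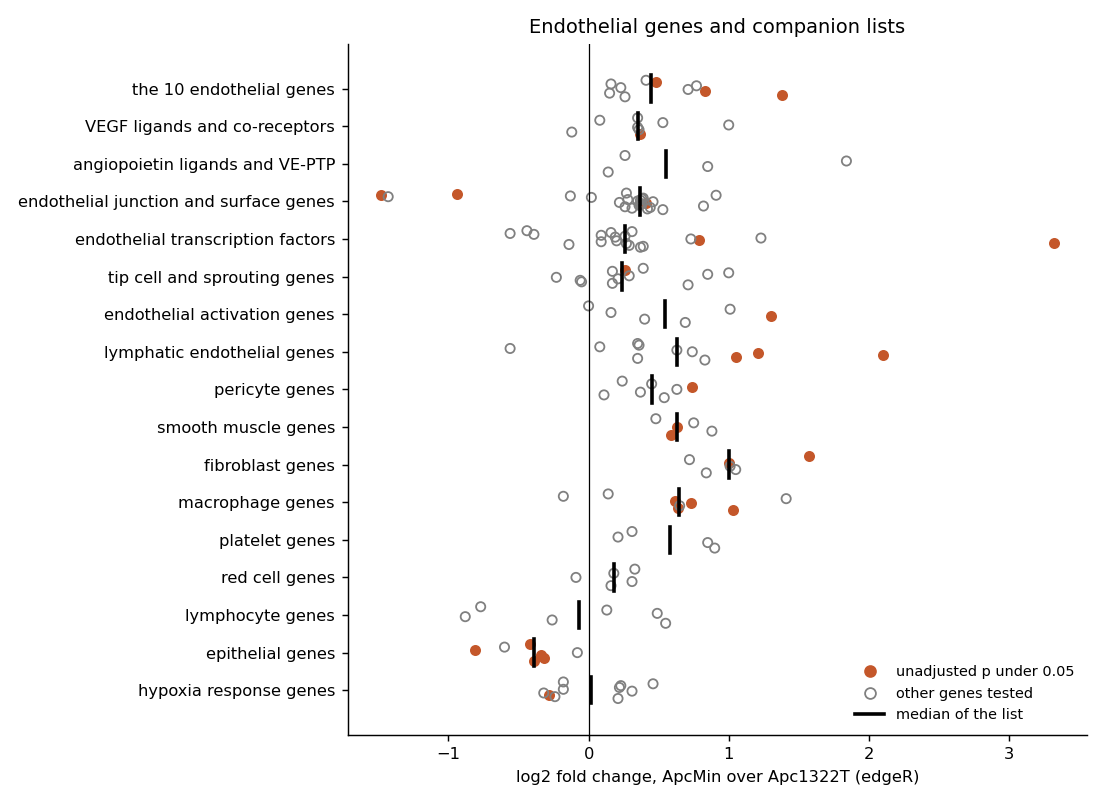
Log2 fold change, ApcMin over Apc1322T (horizontal axis), of every tested gene in the endothelial list and in each list set beside it, with filled orange points for an unadjusted p under 0.05, open points for the other genes and a black bar at the list's median. The endothelial genes have a median of 0.44, fibroblast genes 1.01 and epithelial genes -0.39.

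Lists for other cells of an excised adenoma were read in the same way, since several of the endothelial genes are also made elsewhere. As above, 52.4% of all genes had a log2 fold change above 0. An unadjusted p under 0.05 with a higher level in ApcMin adenomas was found for 7.49% of all genes. All 7 tested pericyte genes, which mark the cells that wrap capillaries, were higher in ApcMin adenomas (median 0.45, 1 with an unadjusted p under 0.05, *Abcc9*), and their summed level was 105 to 163 CPM in Apc1322T and 147 to 188 CPM in ApcMin libraries. All 5 smooth muscle genes (median 0.63, 2 with an unadjusted p under 0.05) and all 6 fibroblast genes (median 1.01, 2 with an unadjusted p under 0.05, *Pdgfra* and *Lum*) were higher too. Without ApcMin replicate 1 the fibroblast median was 0.38 and the pericyte median 0.26. No smooth muscle gene had an unadjusted p under 0.05 without ApcMin replicate 2, and no pericyte gene without Apc1322T replicate 2, ApcMin replicate 1 or ApcMin replicate 3. The summed level of the fibroblast genes was 604 to 1520 CPM in Apc1322T and 982 to 3300 CPM in ApcMin libraries, and that of smooth muscle genes 115 to 228 and 244 to 350 CPM. The 10 endothelial genes summed to 314 to 456 CPM in Apc1322T and 468 to 596 CPM in ApcMin libraries. *Prox1*, the gene of the list with the highest log2 CPM in each library, weighs most in this sum. The mean log2 CPM of the 8 genes other than *Lyve1* and *Prox1* was 4.94, 4.26 and 4.36 in the Apc1322T libraries. In the ApcMin libraries it was 5.18, 4.78 and 5.27, with overlap. Of 8 macrophage genes, which bear on *Lyve1*, 7 were higher and 4 had an unadjusted p under 0.05 (*Adgre1*, *Csf1r*, *C1qa* and *Mrc1*). This was 0 without Apc1322T replicate 2, and likewise without Apc1322T replicate 3, and 6 without ApcMin replicate 2, beside 6.92%, 8.63% and 12.6% of all genes. Their summed level was 62.6 to 75.1 CPM in Apc1322T and 76.3 to 151 CPM in ApcMin libraries. *Timd4* and *Folr2*, markers of resident macrophages that often carry Lyve1, had between 6 and 18 counts and log2 fold changes of 0.14 ± 0.43 and -0.18 ± 0.52 (SE). *Cd163*, also in this list, had 1.41 ± 0.69 (SE), from 0.39 to 1.75 with a library left out. It had 8 to 14 counts in Apc1322T libraries and 22, 15 and 78 in the ApcMin libraries. The part of macrophages in the values of *Lyve1* was not tested. Of 6 platelet genes, which bear on *Pecam1* and *Vwf*, 4 passed the filter. All 4 were higher, none with an unadjusted p under 0.05, and the list summed to 7.84 to 11.2 CPM in Apc1322T and 11.0 to 17.6 CPM in ApcMin libraries. Haemoglobin and other red cell genes, which follow the blood left in a sample, overlapped, from 360 to 1060 and from 479 to 982 CPM. Replicate 1 was the highest of each genotype, as for *Pecam1*, *Kdr*, *Flt1*, *Tie1* and *Plvap*. This order was not particular to red cell genes. It also held for the summed levels of the pericyte, fibroblast, macrophage and platelet genes, but not for those of smooth muscle and lymphocyte genes. The part of blood left in a sample in the endothelial values was not tested. Of 6 lymphocyte genes 3 were higher and 3 lower, with a median of -0.07. Hypoxia response genes, a group to which *Vegfa* is also known to belong, had a median of 0.02 with 5 higher and 5 lower. No gene of these lists was at 0 in all libraries.

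The genes whose levels over the 6 libraries were most like the mean of the 10 endothelial genes were found by the root mean square difference of centred log2 CPM. The nearest 5 were *Ssbp2* (0.053), *Rhoj* (0.054), *Fermt2* (0.054), *Ptp4a3* (0.056) and *Slc7a6* (0.058), with log2 fold changes between 0.46 and 0.57. Since they were picked for this likeness, fold changes near those of the endothelial mean follow from the choice. *Rhoj*, which encodes a small GTPase, had log2 CPM of 5.28, 4.59 and 4.61 in the Apc1322T and of 5.29, 5.16 and 5.52 in the ApcMin libraries. The endothelial genes themselves differed from their own mean by 0.21 for *Lyve1* to 0.516 for *Cdh5* on this measure. *Cdh5* was thus the farthest from the mean on this measure. The measure is not scaled, so it grows with a gene's range over the libraries, which was widest for *Cdh5* (2.31 log2 units).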

How the data were processed

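RNA-seq was analysed for intestinal adenomas of Apc1322T/+ and ApcMin/+ mice, with 3 libraries per genotype. Per the labels and the study's methods, stranded single-end reads of 50 bases were assigned to the GRCm38 transcriptome with Salmon, and the authors deposited estimated counts per gene without scaling. These were rounded to whole numbers. Symbols, coordinates and exon lengths came from GENCODE M21, matching 34652 of 34866 identifiers. Genes were kept with filterByExpr (minimum count 10, minimum total count 15), normalised by TMM, and ApcMin was tested against Apc1322T in edgeR 4.0.16 (R 4.3.3) by a quasi-likelihood F-test with robust estimation. A standard error is the fold change over the square root of F. DESeq2 1.42.0 was an alternative, beside other normalizations, filters, a replicate block and each library left out. The fits were tested on simulated data first.

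The 10 genes and the lists beside them were chosen with earlier results of these data known. The genes named were the 10 members, all VEGF and angiopoietin genes listed, up to 4 genes of the smallest unadjusted p per list, and the 5 genes nearest to the members' mean. *Ace*, *Aqp1*, *Sox7*, *Sox18*, *Foxc2*, *Stab2*, *Timd4*, *Folr2* and *Cd163* were named in addition, after their values were seen. Libraries held between 23132461 and 33518324 estimated counts, and the spread between libraries, more than the counting error, limits the precision.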

Additional observations from a re-analysis of the deposited data

How the results depend on the processing

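Of 130 values of single endothelial genes in the alternative fits, 126 kept their direction and their side of the threshold. Without ApcMin replicate 1, *Pecam1*, *Kdr* and *Plvap* had log2 fold changes of -0.02, -0.06 and -0.01 (up to 0.44, 0.30 and 0.32 with other libraries left out). Relative to 24 endothelial surface genes, a scaling chosen after seeing the data and without a test, *Kdr* and *Plvap* had -0.08 and -0.05. The other 8 kept their direction, and the median of the 10 genes on this scaling was 0.23 in place of 0.44. *Cdh5* passed an adjusted p of 0.01 under DESeq2's Wald test alone (log2 fold change 1.37). The cause of these changes was not tested. Against 0 genes in edgeR's quasi-likelihood test, DESeq2 called 194, the fit with no filter on low counts 1, and an adjusted p under 0.05 also 1. With each library left out the count ran from 0 to 1, the endothelial genes at an unadjusted p under 0.05 from 1 to 4 (all genes from 6.92% to 24.4%), those higher in ApcMin adenomas from 7 to 10, and the median log2 fold change of the 10 genes from 0.32 to 0.57. Other normalizations left the median of all genes within 0.074 of 0. With the longest transcript as length, the median level of the 10 genes was 4.59 in place of 3.10 CPM per kilobase, as shorter lengths raise it. With the replicate number as a block, 0 genes passed, 2 endothelial genes had an unadjusted p under 0.05 and their median stayed at 0.44. The labels do not say whether same-numbered libraries share more than a number. The correlations of their deviations from the group means were -0.014, 0.164 and -0.286, beside -0.359 to 0.329 for pairs of unlike number. With 3 libraries per genotype these values cannot show whether there was a shared batch.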
